A study of Mus musculus with 4 samples.

Results

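The expression of 10 mast cell genes in brown adipose tissue (BAT) was examined, out of 55387 gene rows listed for each library. These genes were Cma1, Mcpt4, Cpa3, Tpsb2, Tpsab1, Kit, Ms4a2, Fcer1a, Hdc and Gata2, and all 10 had a row in every library. They were chosen from genes known in mast cells with the expression values of the same 4 libraries in view, so their levels and their differences between genotypes are given as a description and no p-value is attached to them. Mast cells are tissue-resident granulocytes of the bone marrow lineage. They are known for granules packed with proteases, heparin and histamine, for the high-affinity IgE receptor, and for their dependence on the receptor KIT and its ligand, stem cell factor. In mice the mast cells of connective tissue store chymases, a tryptase and carboxypeptidase A3, whereas those of mucosa store a different pair of chymases. In adipose tissue they lie scattered along vessels and connective tissue septa.

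The RNA was taken from BAT of 15-week-old male mice on a C57BL/6 background, 2 Sox4f/f mice and 2 littermates labelled Sox4-MKO, with 1 library per mouse. Every animal carried floxed Sox4 alleles, and the labels name the genotype of the Sox4f/f controls WT. In Sox4-MKO mice a Cre recombinase under control of Myf5 acts in the precursors of brown adipocytes and skeletal muscle. Mast cells arise from blood progenitors, and the labels name the material BAT adipocytes although leukocyte and muscle genes were present in it. The deposited values were FPKM, the fragment number of a transcript divided by its length and by the fragments mapped in that library. From low values of single-transcript genes, the depth was estimated at between 12200000 and 16600000 fragments per library, which is approximate.

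Sox4 had 1.98 and 1.06 FPKM in Sox4f/f mice 1 and 2, and 0.98 and 3.06 FPKM in Sox4-MKO-labelled mice 1 and 2. The deleted gene was therefore not detectably lower under that label (log2 fold change 0.20, standard error (SE) 0.43, adjusted p = 0.843 by limma), and directions below follow the labels. These are RNA values of whole tissue. For SOX4 protein, the paper reported a strong reduction in BAT of other, younger Sox4-MKO mice. Brown adipocyte markers were present in every library, with Ucp1 between 733 and 1935 FPKM. Across 12877 genes whose mean FPKM exceeded 1 in either genotype, limma called 1024 genes higher (7.95%) and 1066 genes lower (8.28%) in the Sox4-MKO-labelled mice at an unadjusted p under 0.05. After Benjamini-Hochberg adjustment it called 0, and with 2 mice against 2 an exact permutation test of a single gene cannot give a p below 0.333. The values come from whole tissue, in which more cells of a type and more RNA per cell cannot be told apart.

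Among the 7 genes that passed the FPKM limit, the granule protease genes had the largest log2 fold changes, so the promoters of 3 of them, those found in the RefSeq promoter table (GRCm38.p6), are shown, each from 250 bases before to 50 bases after the transcription start, 5′ to 3′ along the gene. Capitals mark GATA motifs, written AGATAA or TGATAA or AGATAG or TGATAG, on either strand. The window of Cma1 is chr14:55944626-55944925, that of Mcpt4 is chr14:56062261-56062560 and that of Cpa3 is chr3:20242132-20242431, all on the minus strand.
Cma1: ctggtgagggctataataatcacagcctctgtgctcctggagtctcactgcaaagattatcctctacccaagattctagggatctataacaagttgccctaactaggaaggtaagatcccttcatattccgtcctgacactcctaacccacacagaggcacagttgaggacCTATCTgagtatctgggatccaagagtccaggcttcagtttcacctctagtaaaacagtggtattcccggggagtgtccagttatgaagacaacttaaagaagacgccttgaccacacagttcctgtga
Mcpt4: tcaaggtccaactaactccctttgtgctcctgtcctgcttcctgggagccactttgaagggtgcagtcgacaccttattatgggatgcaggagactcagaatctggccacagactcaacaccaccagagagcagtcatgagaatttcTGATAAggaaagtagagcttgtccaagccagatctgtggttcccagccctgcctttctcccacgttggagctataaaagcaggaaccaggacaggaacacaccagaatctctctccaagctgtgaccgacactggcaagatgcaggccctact
Cpa3: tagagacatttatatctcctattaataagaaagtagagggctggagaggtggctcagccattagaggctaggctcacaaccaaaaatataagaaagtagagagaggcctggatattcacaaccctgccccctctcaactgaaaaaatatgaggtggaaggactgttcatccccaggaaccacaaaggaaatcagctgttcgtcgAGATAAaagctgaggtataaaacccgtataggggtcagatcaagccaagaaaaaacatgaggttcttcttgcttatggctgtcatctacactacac
Each of these windows held 1 GATA motif, at position -79 in Cma1, -103 in Mcpt4 and -46 in Cpa3, counted from the transcription start to its first base. Of the 8 mast cell genes in the table, 6 had at least 1 such motif, with 3 in Ms4a2, 1 each in Fcer1a and Hdc, and none in the windows of Kit and Gata2. The motif was found in 29.8% of all 32851 promoter windows of the same length. An E-box of the kind bound by MITF, written CACATG or CATGTG or CACGTG, was found in the window of Fcer1a alone among the 8, against 20.4% of all windows. Tpsb2 and Tpsab1 had no entry.

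Cma1, Mcpt4, Cpa3 and Tpsb2, the genes of the connective tissue type granule, were each higher in both libraries labelled Sox4-MKO than in both Sox4f/f libraries, by between 2.88-fold and 5.35-fold in mean FPKM. The 2 genes of the IgE receptor, Ms4a2 and Fcer1a, stood higher too, but on a handful of estimated fragments. Kit, Hdc and Gata2 overlapped between the genotypes, and Tpsab1 was at the level of 1 or 2 estimated fragments in all 4 libraries. Higher values in both libraries labelled Sox4-MKO, without overlap, were seen in 4 of the 7 mast cell genes that passed the FPKM limit, and in 21.7% of all genes tested. The 7 had a median log2 fold change of 1.28 and all genes tested one of -0.05. Since the genes were chosen with this contrast known, nothing is read from that count or that median. The panels of the 10 genes show each mouse as a point.

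**Figure D1:**
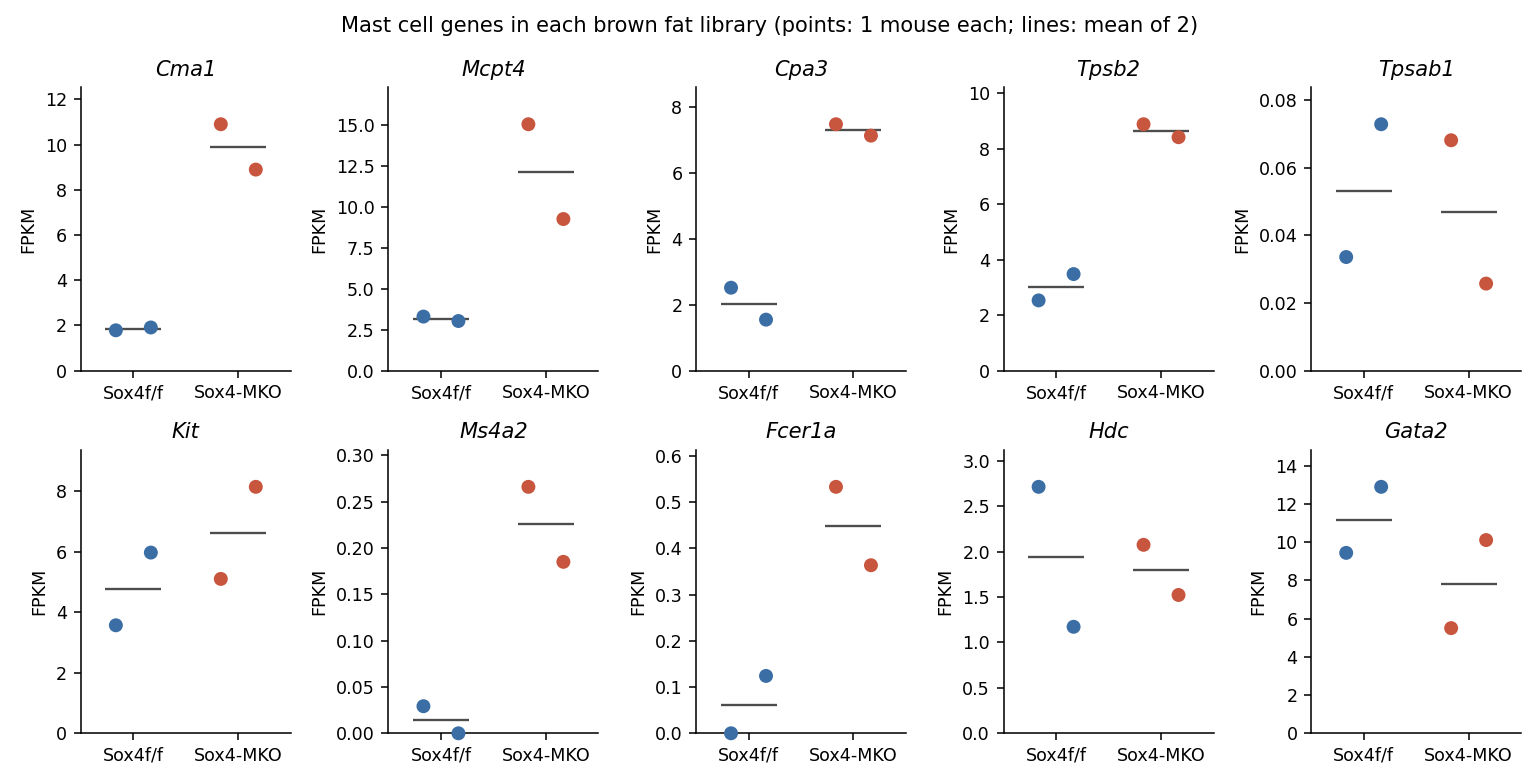
FPKM (vertical axes, each starting at 0) of the 10 mast cell genes in the 2 Sox4f/f mice (blue, mouse 1 left of mouse 2) and the 2 mice labelled Sox4-MKO (red, same order), with a line at each mean. In Cma1, Mcpt4, Cpa3, Tpsb2, Ms4a2 and Fcer1a both red points lie above both blue points, and in Tpsab1, Kit, Hdc and Gata2 the genotypes overlap.

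Cma1 encodes mast cell chymase, the mouse homolog of human chymase, and is located on chromosome 14 (GRCm38, bases 55941451 to 55944675). Its level was 1.79 and 1.91 FPKM in Sox4f/f mice 1 and 2, and 10.9 and 8.90 FPKM in those labelled Sox4-MKO. The values within each genotype lay close together and far from those of the other genotype. The means were 1.85 ± 0.089 FPKM and 9.90 ± 1.42 FPKM (SD, n = 2 each), a ratio of 5.35 and a log2 fold change on the log2(FPKM + 1) scale of 1.93 with an SE of 0.18. From the length of its longest coding transcript, 1090 nt, these values stand for about 27, 25, 155 and 161 fragments.
Mcpt4 encodes the chymase of connective tissue mast cells that cleaves matrix and plasma proteins, and lies on the same chromosome from 56059629 to 56062313. It had 3.30 and 3.03 FPKM in Sox4f/f and 15.0 and 9.26 FPKM under the Sox4-MKO label. Here the 2 Sox4-MKO mice differed from each other more than for the other granule genes, with mouse 1 the highest. The means were 3.17 ± 0.19 and 12.2 ± 4.09 FPKM (SD, n = 2 each), and the log2 fold change of 1.62 (SE 0.26) was 1.30 without Sox4-MKO mouse 1 and 1.95 without mouse 2.
Cpa3 encodes carboxypeptidase A3, an exopeptidase that trims peptides and venoms in the granule, on chromosome 3 from 20215620 to 20242181. Its values were 2.52 and 1.55 FPKM in controls, as opposed to 7.48 and 7.14 FPKM. The spread was wider in the controls than under the other label. The means of 2.03 ± 0.69 and 7.31 ± 0.24 FPKM (SD, n = 2 each) gave a ratio of 3.59 and a log2 fold change of 1.47 (SE 0.22).
Tpsb2 encodes mast cell protease 6, the tryptase stored with heparin, on chromosome 17 from 25366305 to 25369098. It had 2.53 and 3.48 FPKM in Sox4f/f and 8.88 and 8.41 FPKM in the Sox4-MKO-labelled mice. It was the least changed of the granule genes, with means of 3.01 ± 0.67 and 8.65 ± 0.33 FPKM (SD, n = 2 each), a ratio of 2.88 and a log2 fold change of 1.28 (SE 0.19). Of all genes tested, 3.76% had a log2 fold change at least as high.

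Tpsab1 encodes mast cell protease 7, the second tryptase, and lies beside Tpsb2 on chromosome 17 from 25343245 to 25345562. C57BL/6 mice are known to lack this tryptase because of a splice site mutation in the gene. It was listed at 0.034 and 0.073 FPKM in the controls and at 0.068 and 0.026 FPKM in the other libraries, which is about 1, 2, 2 and 1 fragments. No difference was detectable at this depth. The longest coding transcripts of the tryptases were 69.2% identical over 1123 aligned nt, with a longest identical run of 23 nt, and that of Cma1 and Mcpt4 was 27 nt. How fragments were assigned between these genes was not tested.
Most other protease genes of the chromosome 14 locus were listed at 0. Between Cma1 and Gzmb the annotation places 15 protein-coding genes, of which 12 were listed at 0 in all 4 libraries. Among these were Mcpt1 and Mcpt2, the chymases of mucosal mast cells, Mcpt8, a protease of basophils, and Ctsg, which encodes cathepsin G. The remaining ones were Cma1, Mcpt4 and Gzmb. Gzmb, which encodes granzyme B and is also a gene of cytotoxic lymphocytes, had between 0.90 and 1.83 FPKM and overlapped between the genotypes. An exact 0 in FPKM can be a failed estimate, so these genes are described as listed at 0.

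The 4 granule genes, grouped after their values were seen, summed to 10.1 and 9.97 FPKM in Sox4f/f mice 1 and 2 and to 42.3 and 33.7 FPKM in those labelled Sox4-MKO. The ratio of the mean sums was 3.78. Mcpt4 made up between 27.5% and 35.6% of the sum and Cpa3 between 15.5% and 24.8%, and for both the shares overlapped between the genotypes. Tpsb2 made up between 21.0% and 34.9%. The share of Cma1 was 17.6% and 19.2% in Sox4f/f and 25.8% and 26.4% in the other libraries. The sum thus held relatively more Cma1 in both libraries labelled Sox4-MKO. Divided by Ptprc, which encodes the leukocyte common antigen CD45, the sum was 2.27 and 2.23 in Sox4f/f and 6.20 and 4.28 under the Sox4-MKO label. Divided by Kit it was 2.84 and 1.67 against 8.29 and 4.13. Both ratios were higher in both libraries labelled Sox4-MKO. With Acta1, which encodes skeletal muscle actin, as the divisor the direction was the opposite. That ratio was 0.17 and 0.044 in Sox4f/f and 0.0094 and 0.038 under the Sox4-MKO label.

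Ms4a2 and Fcer1a encode the beta and alpha chains of the high-affinity IgE receptor, through which antigen triggers degranulation. Ms4a2 was listed at 0.029 and 0 FPKM in the controls and at 0.27 and 0.18 FPKM in the Sox4-MKO-labelled mice, about 1, 0, 8 and 7 fragments. The 95% Poisson interval of the highest of these was 3.45 to 15.8 fragments and that of the 1 fragment in Sox4f/f mouse 1 was 0.025 to 5.57, so the intervals overlap. Fcer1a was listed at 0 and 0.12 FPKM against 0.53 and 0.36 FPKM, about 0, 2, 7 and 6 fragments, with intervals that overlap in the same way. Both genes had lower values in both controls, both stayed under the FPKM limit and entered no fit, and these intervals cover counting error only. Fcer1g encodes the gamma chain, which the IgE receptor shares with the Fc receptors of macrophages and other leukocytes. It rose from 13.1 ± 2.94 to 22.7 ± 3.41 FPKM (SD, n = 2 each), or on the log2 scale by 0.75 (SE 0.21, unadjusted p = 0.018, adjusted p = 0.236 by limma).

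Kit encodes the receptor for stem cell factor, on which mast cells depend for survival, and lies on chromosome 5 from 75574916 to 75656722. It is also expressed by melanocytes, germ cells and blood progenitors. Kit had 3.57 and 5.98 FPKM in Sox4f/f and 5.11 and 8.15 FPKM in those labelled Sox4-MKO. The genotypes overlapped, since Sox4f/f mouse 2 lay above Sox4-MKO mouse 1. Its log2 fold change of 0.40 (SE 0.32) was between 0.10 and 0.71 when single libraries were left out, on about 257 to 710 fragments.
Gata2 encodes a transcription factor of mast cells and other blood lineages that is also present in endothelial cells and in preadipocytes. It was the most abundant of the 10 genes in Sox4f/f, at 9.44 and 12.9 FPKM, against 5.50 and 10.1 FPKM under the Sox4-MKO label. Sox4-MKO mouse 2 fell between the controls. The log2 fold change was -0.50 (SE 0.32), from -0.89 to -0.12 when a library was left out.
Hdc encodes histidine decarboxylase, the enzyme that makes histamine. It had 2.71 and 1.17 FPKM in Sox4f/f and 2.08 and 1.52 FPKM in the Sox4-MKO-labelled mice. Both of the latter lay between the controls. The log2 fold change of -0.03 (SE 0.34) turned to 0.36 without Sox4f/f mouse 1 and to 0.02 after rescaling to a common sum without mitochondrially encoded genes and Ucp1, so it has no stable direction.
On the FPKM scale, the order of mean levels in Sox4f/f was Gata2, Kit, Mcpt4, Tpsb2, Cpa3, Hdc and Cma1, followed by the genes under the limit. The ranges over the 2 mice overlapped for Mcpt4 and Tpsb2, for Cpa3 and Hdc, and for Hdc and Cma1, so these neighbours were not separated by the spread between mice. In the libraries labelled Sox4-MKO the order was Mcpt4, Cma1, Tpsb2, Gata2, Cpa3, Kit and Hdc. Here the ranges of neighbours overlapped from Tpsb2 to Kit and for Mcpt4 and Cma1, while Cma1 lay just above Tpsb2 and Hdc below all others.

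Further mast cell genes were taken from 6 lists with 59 genes in all, of which 34 passed the FPKM limit. These lists were also chosen with earlier results of these libraries known. The counts and p-values of their genes are therefore a description, and nothing is read from the counts beside the shares of all genes. At an unadjusted p under 0.05 limma called 8 of the 34 higher and 0 lower in those labelled Sox4-MKO, against 7.95% and 8.28% of all genes tested, and 0 of them passed after adjustment over all genes. Their median log2 fold change was 0.23. The 8 genes were Cd63, Fcer1g, Ptger3, Syk, Alox5, Alox5ap, Pla2g4a and Il33, most of which other cells in fat express as well. Alox5, Pla2g4a and Il33 had Sox4f/f means of 0.70, 0.28 and 0.91 FPKM. They passed the FPKM limit only through the mice labelled Sox4-MKO, and so were tested only because they were higher there. The count of 8 fell to 4 after quantile normalization and to 2 without Sox4f/f mouse 1. The call was lost without Sox4f/f mouse 1 for Fcer1g, Syk, Alox5, Alox5ap, Pla2g4a and Il33, and without Sox4f/f mouse 2 for Cd63, Syk, Alox5, Alox5ap, Pla2g4a and Il33. It was lost without Sox4-MKO mouse 1 for Fcer1g, Syk and Alox5ap, and without Sox4-MKO mouse 2 for Cd63 and Syk. Without Sox4-MKO mouse 1, Pla2g4a fell under the FPKM limit and was not tested.
In the granule list, 4 of 13 genes were tested and 1 rose. Cd63, which encodes a tetraspanin of granule and lysosome membranes in many cells, went from 76.0 ± 12.3 to 120 ± 10.3 FPKM (SD, n = 2 each), or on the log2 scale by 0.66 (SE 0.16, adjusted p = 0.219 by limma). Srgn, the core protein that carries heparin in mast cell granules, is made by most leukocytes and endothelial cells, and its values of 37.1 and 41.8 against 42.8 and 50.8 FPKM did not pass (log2 fold change 0.24, unadjusted p = 0.168 by limma).
In the surface and signalling list, 3 of 11 tested genes rose. Besides Fcer1g they were Syk, the kinase downstream of the IgE receptor, with a log2 fold change of 0.57 (SE 0.21, unadjusted p = 0.043 by limma), and Ptger3. The call of Syk was lost under 10 of its 13 alternatives. Ptger3 encodes the EP3 receptor for prostaglandin E2, which adipocytes express strongly, and rose from 28.2 ± 4.91 to 68.6 ± 2.61 FPKM (SD, n = 2 each). On the log2 scale this was 1.26 (SE 0.16, adjusted p = 0.191 by limma) and was called under all 14 alternatives run.
In the lipid mediator list, 3 of 6 tested genes rose. Alox5 encodes 5-lipoxygenase and Alox5ap its activating protein, the first steps of leukotriene synthesis in mast cells, macrophages and neutrophils. Alox5 had 0.59 and 0.81 FPKM in controls, as opposed to 1.76 and 1.63 FPKM, and Alox5ap 4.58 and 5.02 FPKM against 10.3 and 7.33 FPKM. Neither overlapped between the genotypes, and their log2 fold changes were 0.67 and 0.74 (SE 0.23 and 0.21, unadjusted p = 0.037 and 0.018 by limma). Pla2g4a, the phospholipase that releases arachidonic acid, had a log2 fold change of 0.90 (SE 0.33, unadjusted p = 0.046 by limma), with 0.16 and 0.41 against 1.95 and 0.91 FPKM. Ltc4s and Hpgds, which make leukotriene C4 and prostaglandin D2, overlapped between the genotypes.
None of the 6 tested transcription factors was called by limma at an unadjusted p under 0.05. Mitf, which with GATA2 drives mast cell genes and is also found in other cells, had 2.38 and 1.89 against 3.64 and 2.68 FPKM (log2 fold change 0.40, unadjusted p = 0.139 by limma). Stat5a, the most abundant of the list, had a log2 fold change of -0.08 (unadjusted p = 0.701 by limma).
Of the growth and recruitment factors, 1 of 5 tested genes rose. Il33, an alarmin of stromal cells that activates mast cells through the receptor encoded by Il1rl1, went from 0.91 ± 0.059 to 2.19 ± 0.33 FPKM (SD, n = 2 each), or on the log2 scale by 0.73 (SE 0.22, unadjusted p = 0.023 by limma). Il1rl1 had 0.37 and 0.72 against 1.46 and 1.08 FPKM and was not called (unadjusted p = 0.097 by limma). Kitl, which encodes stem cell factor, had 20.2 and 14.7 FPKM in Sox4f/f and 18.3 and 20.5 FPKM in the other libraries, and overlapped between the genotypes. Il3, Il4, Il9 and Il13 were listed at 0 throughout. Of the histamine receptors and degrading enzymes, 2 of 6 genes were tested and 0 were called by limma, among them Hnmt, which inactivates histamine in tissue, with a log2 fold change of -0.08 (unadjusted p = 0.621 by limma).
Of the 59 genes, 25 did not pass the FPKM limit and were not tested, and 11 of these were listed at 0 in all libraries. Of the other 14, 7 were higher in both libraries labelled Sox4-MKO (Slc18a2, Tph1, Mrgprb1, Mrgprb2, Tpsg1, Btk and Hrh1), 1 was lower in both and 6 overlapped between the genotypes (Rab27b, Adora3, Ptgs2, Gata1, Tslp and Hrh3). The lower one was Cd200r3, a receptor of basophils and mast cells, listed at 0.14 and 0.32 FPKM in the controls and at 0.022 and 0 FPKM in the others. The share of all genes under the limit that were higher in both was not computed, so nothing is read from the count of 7. Of the 7, the 4 most typical of mast cells are given, picked after their values were seen. Slc18a2, which loads histamine and serotonin into granules, had 0.056 and 0.087 FPKM in Sox4f/f and 0.61 and 0.35 FPKM under the Sox4-MKO label, about 3, 4, 30 and 22 fragments. Tph1, the enzyme of serotonin synthesis, had about 4, 2, 26 and 12 fragments in the same order. Mrgprb1 had about 18, 7, 61 and 42 fragments, and Mrgprb2, the receptor for cationic drugs and peptides, about 7, 0, 17 and 13.

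**Figure D2:**
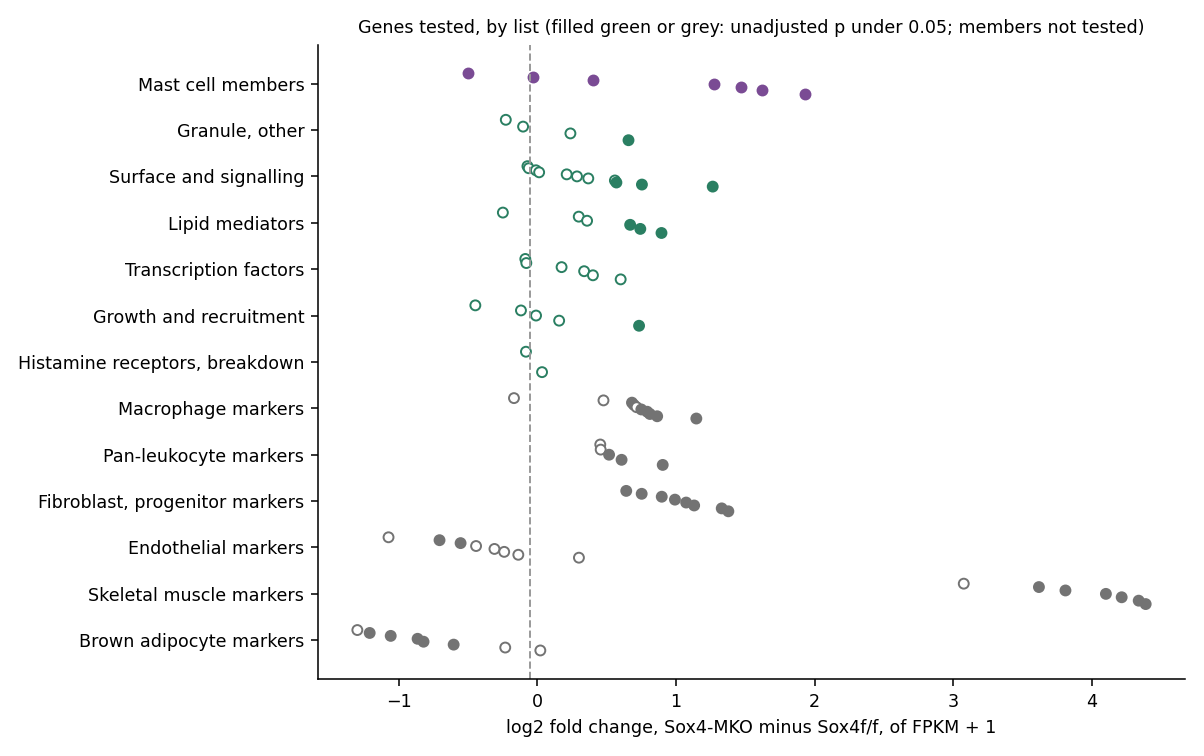
Log2 fold change of FPKM + 1, Sox4-MKO minus Sox4f/f (horizontal axis), of each gene that passed the FPKM limit, by list. Purple points are the mast cell genes described first, which were not tested, green points the wider mast cell lists and grey points markers of other cells, filled where the unadjusted p was under 0.05, and the dashed line is the median of all genes, -0.05. Cma1, Mcpt4, Cpa3 and Tpsb2, chosen with this contrast known, lie between 1.28 and 1.93. The highest tested gene of the wider mast cell lists is Ptger3, at 1.26. Col1a1 (1.33) and Col3a1 (1.38) lie within the range of the granule genes. Skeletal muscle markers lie beyond it, from 3.07 (Myh4) to 4.39 (Mylpf).

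Markers of other cells were followed in 15 lists with 102 genes. These lists too were chosen with earlier results of these libraries known, so their counts are a description. In the counts below, genes that rose, or fell or were lower, were called by limma at an unadjusted p under 0.05. Of all genes tested, 7.95% were called higher and 8.28% lower in this way, and 0 passed after adjustment. The sum of the 7 skeletal muscle markers was 163 and 604 FPKM in Sox4f/f and 11844 and 2140 FPKM in the Sox4-MKO-labelled mice, and 6 of the 7 rose. Acta1, skeletal muscle actin, had 59.9, 226, 4512 and 898 FPKM in the 4 libraries. The muscle sum and Acta1 thus differed severalfold within each genotype. The fibroblast and progenitor list rose in 8 of 8 genes, and its sum was 326 and 376 FPKM against 792 and 721 FPKM. Col1a1, a fibrillar collagen gene, had 32.0, 30.2, 79.3 and 79.9 FPKM, and the granule sum divided by Col1a1 was 0.32 and 0.33 in Sox4f/f and 0.53 and 0.42 in the others. Of the tendon and fascia list 1 gene was tested and rose, Thbs4. It passed the FPKM limit only through the mice labelled Sox4-MKO, with means of 0.11 against 4.95 FPKM. The list summed to 0.61 and 0.72 FPKM against 9.13 and 5.69 FPKM. The part of muscle, tendon and fascia tissue in the differences of the mast cell genes was not tested.
Among blood cells, 7 of 10 macrophage markers rose, among them Mrc1 and C1qa, with sums of 219 and 320 FPKM against 448 and 439 FPKM. Of these 7, Fcgr1 passed the FPKM limit only through the mice labelled Sox4-MKO, with means of 0.849 against 2.125 FPKM. It was thus tested only because it was higher there. Of the pan-leukocyte markers, 3 of 5 rose (Ptprc, Cd53 and Laptm5), with sums of 37.6 and 33.8 FPKM against 56.2 and 54.6 FPKM. The basophil markers summed to 2.93 and 3.63 FPKM against 3.65 and 3.02 FPKM, with Mcpt8 listed at 0 in every library. Nearly all of this sum was Il3ra, at 2.77 and 3.36 FPKM against 3.15 and 2.80 FPKM. In the eosinophil list Epx was listed at 0, and Ear2, which macrophages also express, was the 1 gene tested and rose. In the neutrophil list 1 of 2 tested genes rose, S100a9, with Ly6g and Mpo at 0. The lymphocyte markers summed to 5.25 and 4.07 FPKM against 2.43 and 7.53 FPKM. Of the blood cell RNA list, 1 of 6 tested genes rose, Pf4, and Hbb-bs and Hba-a1 overlapped between the genotypes.
Of the other cells known for Kit or Gata2, melanocyte markers summed to at most 1.65 FPKM, with Tyr and Tyrp1 listed at 0 and 0 genes tested. Endothelial markers were lower in 2 of 8 genes, Tie1 and Egfl7, with sums of 309 and 396 FPKM against 212 and 279 FPKM. Keratinocyte markers summed to at most 1.01 FPKM, with Krt5 and Krt1 at 0. The brown adipocyte list fell in 5 of 8 genes (Ucp1, Cidea, Ppargc1a, Cox8b and Cox7a1) and the general adipocyte list in 1 of 5, Lipe. What these differences contribute to the values of the mast cell genes was not tested.

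**Figure D3:**
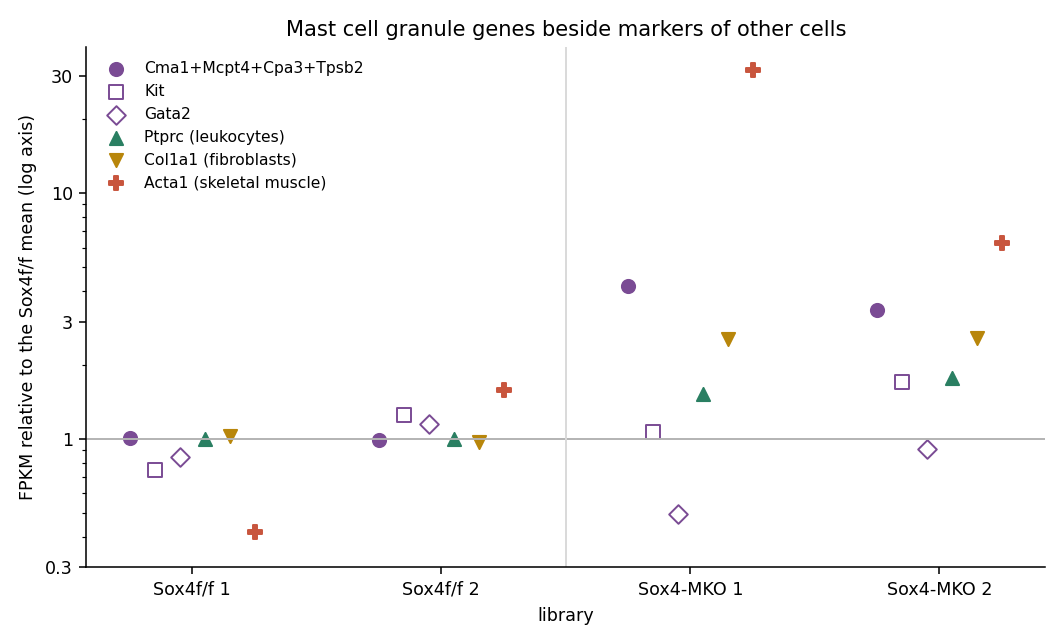
FPKM relative to the mean of the 2 Sox4f/f mice (vertical log axis) in each of the 4 libraries, for the sum of Cma1, Mcpt4, Cpa3 and Tpsb2, for Kit and Gata2 (open symbols), and for a marker each of leukocytes, fibroblasts and skeletal muscle, 1 point per library. The granule sum was 10.1 and 9.97 FPKM, then 42.3 and 33.7 FPKM, and Acta1 was 59.9 and 226 FPKM, then 4512 and 898 FPKM. Gata2 lay below its control mean in both libraries labelled Sox4-MKO.

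The pattern of the mast cell genes over the 4 libraries was compared with that of every other gene tested. As the measure, the log2(FPKM + 1) values of a gene were centred on their mean, and the root mean square distance to the median centred values of the 7 mast cell genes was taken. Kit, Hdc and Gata2 overlapped between the genotypes, and Gata2 had a log2 fold change of -0.50. The median is therefore not a pattern that all 7 share. The 6 nearest genes were Aspn, Emilin2, Ecm1, Gm3646, Mfap2 and Matn2, at distances from 0.057 to 0.068. Aspn, which encodes asporin, had 11.5 and 11.7 FPKM in Sox4f/f and 28.5 and 24.0 FPKM in those labelled Sox4-MKO. Gm3646 was listed at 0 in both controls and at 1.11 and 0.93 FPKM in the others. With 4 libraries many of the 12877 genes can lie this close, and the likeness is a description.

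The direction of the granule genes held in each setting run. It could not turn when a library was left out or the pseudocount was changed, because their genotypes did not overlap. The FPKM limit, the moderation and the replicate block leave the estimate of a fitted gene unchanged. Only the other scalings could therefore have turned the direction of the granule genes. These genes were also chosen with the contrast known, so the ranges are a description. With each library left out in turn, the log2 fold change of Cma1 was between 1.80 and 2.06, that of Mcpt4 between 1.30 and 1.95, that of Cpa3 between 1.24 and 1.70 and that of Tpsb2 between 1.11 and 1.45. Under other scalings, limits, pseudocounts and fits, Cma1 was between 1.85 and 2.41 and Cpa3 between 1.37 and 1.88. Kit stayed above 0 and Gata2 below 0 in each of these, by amounts down to 0.10 and -0.12.

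**Figure D4:**
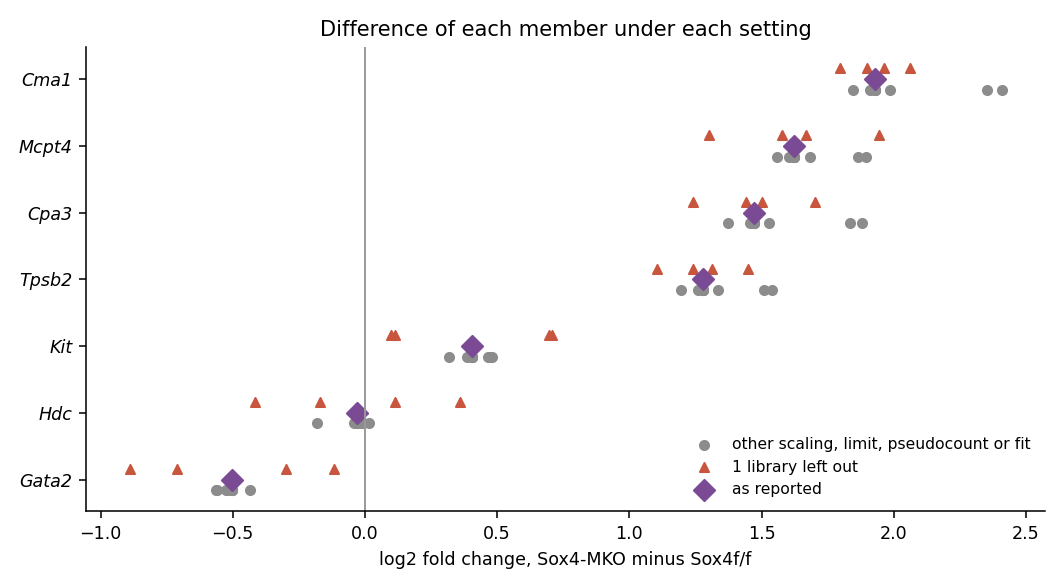
Log2 fold change, Sox4-MKO minus Sox4f/f (horizontal axis), of the 7 mast cell genes that passed the FPKM limit, as reported (diamonds), with a library left out (triangles) and under other scalings, limits, pseudocounts or fits (grey circles). The lowest point of a granule gene is 1.11 (Tpsb2), and those of Hdc fall on both sides of 0.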

How the data were processed

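RNA sequencing values of 4 BAT libraries were used, 2 per genotype. The authors deposited 1 FPKM value per gene and library; the submitters' processing notes name Cufflinks 2.1.1, Cuffdiff and mm10. The aligner and the gene annotation are not given in the sources used here, and the values are not counts, so no count test was run. The labels and the paper differ on the RNA and library kits, so whether strand was kept is unsure. Genes whose mean FPKM exceeded 1 in either genotype were fitted in limma 3.58.1 (R 4.3.3) as log2(FPKM + 1), the model holding genotype alone, and with a trended variance prior. p-values are two-sided, unadjusted or Benjamini-Hochberg adjusted over all genes fitted, and a fold change on this scale understates that of low genes. The code was tested on simulated data. The mast cell genes and all lists were chosen with earlier results of these data known. Members are all named. Of the wider lists, genes with an unadjusted p under 0.05 are named, and otherwise the most abundant ones, and further genes named were picked after their values were seen. The nearest patterns were the 6 smallest distances.

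Fragments behind a value were estimated from genes with 1 transcript of at least 1500 nt in GENCODE M21, whose lowest FPKM × kb values cluster at 1 fragment (0.060 to 0.082), and from the longest coding transcript of each named gene. They are rough, and 95% exact Poisson intervals cover counting error only. Coordinates are those of GENCODE M21 (GRCm38, the same assembly as mm10) by symbol, and promoter sequences those of RefSeq. Amino acid sequences were not used here. Transcripts were aligned with Biopython 1.88, and figures drawn with matplotlib 3.10.9. The samples are separate mice.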

Additional observations from a re-analysis of the deposited data

How the results depend on the processing

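Alternatives comprised 3 other scalings, a replicate block, unmoderated variances, lower and higher limits on FPKM, smaller pseudocounts, and leaving out each library. The median log2 fold change of the 4 granule genes was 1.55, against 1.85 and 1.89 with pseudocounts of 0.1 and 0.01, and 1.37 to 1.72 with a library left out. The number of mast cell genes higher without overlap was between 4 and 6 under these settings. It was 6 only with the FPKM limit lowered to 0.1 or removed, which let in Ms4a2 and Fcer1a. With a library left out it was 4 or 5, where fewer values can overlap. The share of all genes higher without overlap was not computed for these settings, so nothing is read from this range. For Hdc the log2 fold change turned positive after the common sum scaling (0.017), without Sox4f/f mouse 1 (0.36) and without Sox4-MKO mouse 2 (0.11), from -0.03, and its range with a library left out was -0.41 to 0.36.

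Of the wider mast cell lists, 8 genes were called higher. This was 4 after quantile normalization, 4 with an FPKM limit of 5, 5 without moderation, 5 with the replicate block and 2 to 7 with a library left out (2 without Sox4f/f mouse 1, 3 without Sox4f/f mouse 2, 4 without Sox4-MKO mouse 1). With no FPKM limit 1 was called lower, Cd200r3. Their median was 0.29 after the common sum scaling, 0.19 after quantile normalization, 0.28 and 0.16 with limits of 0.1 and 5, and 0.18 to 0.29 with a library left out. Of the other cell type lists, 28 genes were called higher and 8 lower, against 9 higher without moderation, 5 lower after quantile normalization, and 14 to 23 higher and 4 to 8 lower with a library left out.

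Over all genes, 553 were called higher without moderation, and 445 to 1559 higher and 404 to 1012 lower with a library left out, with 0 to 5 after adjustment. The lower calls were 51.0% of all calls, 36.1% after the common sum scaling, 62.8% without moderation and 34.9% without Sox4-MKO mouse 2. The mouse numbers are not known to pair the animals. The correlation of same-numbered deviations was -0.012 over 12877 genes, so the replicate block shows only a shared number. Depth limits Tpsab1, Ms4a2 and Fcer1a, at 8 estimated fragments or fewer.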

Other observations

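The 4 granule genes alone, grouped after their values were seen, gave another set of nearest patterns over the 4 libraries. The 3 nearest genes were Gm49540, Sema3c and Slc25a10, at distances of 0.050, 0.058 and 0.067 on the centred log2 scale. Retnla, a gene of alternatively activated macrophages and of adipocytes, was 5th, with 67.7 and 66.1 FPKM in Sox4f/f and 257 and 182 FPKM under the Sox4-MKO label. The chemokine gene Ccl9 was 6th, with 4.83 and 4.90 FPKM against 17.0 and 15.8 FPKM.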
